A study of Mus musculus with 4 samples.

Results

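Bladder smooth muscle contracts and relaxes through a set of membrane channels, calcium stores and transmitter receptors, and 10 genes of that machinery were followed here. They were chosen by name, as the rows of the deposited expression matrix that carry the symbols *Kcnma1*, *Kcnmb1*, *Cacna1c*, *Ryr2*, *Itpr1*, *Atp2a2*, *Pln*, *Chrm2*, *Chrm3* and *P2rx1*, and all 10 were found among the 25819 rows. The rows were taken by symbol and not by a threshold on a measured value, but the symbols were chosen with earlier results of these data known. RNA-Seq had been made from the whole urogenital sinus (UGS), the embryonic tissue that gives rise to the bladder neck, urethra and prostate, of male mouse embryos on a B6C3-F1 hybrid background. There were 4 groups, since each of the embryonic stages E16.5 and E18.5 gave 1 wild type group and 1 group of *Tbx18*GFP/GFP null mutants. Mutants carry a GFP knock-in on both copies of *Tbx18*, a T-box transcription factor gene, in every cell from conception, and controls were littermates. Each group was 1 library of RNA pooled from 3 embryos, so there was no replicate check, no test between groups could be made, and the differences compare these libraries.

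In the mature bladder wall, nerves release acetylcholine and ATP onto smooth muscle. Acetylcholine acts on muscarinic receptors and ATP on an ion channel that opens when ATP binds, the membrane depolarises, L-type channels admit calcium, and stores in the sarcoplasmic reticulum release more through ryanodine and inositol trisphosphate receptors. The large-conductance calcium-activated potassium (BK) channel opposes depolarisation, and a calcium pump refills the stores.

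Values are FPKM, which divide reads by transcript length and by the depth of the library, so levels of different genes can be set side by side within a library. The libraries held about 64000000, 55700000, 29000000 and 52400000 mapped reads for E16.5 wild type, E16.5 mutant, E18.5 wild type and E18.5 mutant, estimated from the FPKM of single reads. The E18.5 wild type library stood apart. It was the shallowest, and its comparisons changed with the GC content of genes. In the E18.5 genotype comparison the median log2 fold change was -0.06 in the 10% of genes lowest in GC content and 0.82 in the 10% highest, against 0.01 and 0.02 in the E16.5 genotype comparison. Over all genes that reached 1 FPKM in both libraries compared, the median log2 fold change of mutant over wild type came to 0.01 at E16.5 and to 0.29 at E18.5, and that from E16.5 to E18.5 was -0.33 in wild type and -0.06 in the mutant. The E18.5 genotype values are therefore given with the E18.5 mutant over the E16.5 wild type, which leaves the E18.5 wild type library out but in which genotype and stage cannot be told apart. The comparisons share libraries and are not independent of one another. *Tbx18* itself had 3.47, 2.50, 3.16 and 2.93 FPKM in the same order of libraries, and the values do not separate transcript of the knock-in locus from that of an intact one.

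The smooth muscle label was checked against 10 marker genes, all of which had at least 1 FPKM. Their summed level was 1487 FPKM in E16.5 wild type, 880.1 in E16.5 mutant, 1719 in E18.5 wild type and 4353 in E18.5 mutant. The UGS is a mixed tissue, and skeletal muscle markers summed to 812.3, 340.2, 416 and 787.1 FPKM and neuron markers to 641.8, 534.1, 406.2 and 551.6 FPKM. The skeletal muscle sum was higher in the E18.5 mutant than in E18.5 wild type mostly through *Acta1*, with 455 against 110.5 FPKM. Of its 10 markers 7 were lower there, with a median log2 fold change of -0.24. Heart markers summed to 91.66, 50.12, 40.66 and 66.25 FPKM, most of it from *Myl4*, and 4 of the 8 were under 1 FPKM in every library. Urothelium markers summed to 409.9, 295.9, 467.3 and 548.9 FPKM, lowest in the E16.5 mutant and highest in the E18.5 mutant as the smooth muscle sum was. The likeness is one of sums. At E18.5, 5 of the 7 urothelium markers were higher in the mutant and 2 lower, with a median log2 fold change of 0.21. All 10 smooth muscle markers were higher, with a median of 1.01. Of all genes 69.5% were higher in this E18.5 comparison, with a median of 0.29, so the urothelium values were near the background. Markers of the UGS region summed to 112.7, 105.9, 146 and 91.96 FPKM. In whole tissue RNA, fewer cells of a type and less RNA per cell cannot be told apart. The part these marker levels play in the results below was not tested.

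At E16.5, 7 of the 10 genes were lower in mutant UGS, with a median log2 fold change of -0.22, and at E18.5, 9 were higher, with a median of 0.45. Of all genes 54.2% were higher in the mutant at E16.5 and 69.5% at E18.5. With library sums equalised the E18.5 median was 0.02, *Kcnma1*, *Ryr2*, *Pln* and *Chrm2* were lower and *Atp2a2* had a log2 fold change of 0.00. For the E18.5 mutant over the E16.5 wild type the median was 0.17. The largest differences were those of *P2rx1*, *Chrm3* and *Kcnmb1*, all lower in the mutant at E16.5 and higher at E18.5, while *Kcnma1* and *Chrm2* differed by at most 1.08-fold at either stage. *P2rx1* ranged 27.7-fold from its lowest to its highest library, *Kcnmb1* 4.73-fold and *Chrm3* 2.61-fold, and the other 7 genes between 1.12-fold and 1.84-fold.

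**Figure D1:**
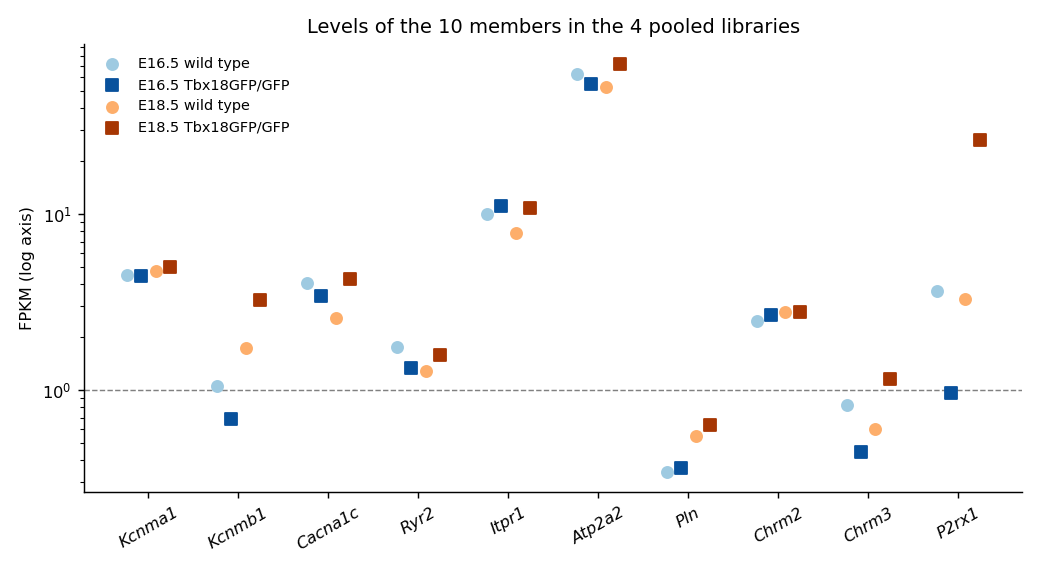
FPKM on a log axis of the 10 genes (x axis) in the 4 pooled libraries, 1 point per library, with a dashed line at 1 FPKM. *Atp2a2* is highest in every library, *Pln* is lowest in every library, and *P2rx1* spreads from 0.959 to 26.6 FPKM.

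The BK channel is built from a pore subunit and auxiliary subunits. *Kcnma1*, the pore, on chromosome 14 from 24117983 to 24823427 in the coordinates of the deposited table, had 4.515 FPKM in E16.5 wild type, 4.471 in E16.5 mutant, 4.747 in E18.5 wild type and 5.015 in E18.5 mutant. Its 4 values lay close together, and mutant over wild type had log2 fold changes of -0.01 at E16.5 and of 0.08 at E18.5, with 95% counting intervals from -0.13 to 0.10 and from -0.06 to 0.22, and the E18.5 mutant was 1.11-fold the E16.5 wild type. *Kcnmb1*, the beta 1 subunit, which raises the calcium sensitivity of the channel and is a classical smooth muscle gene, on chromosome 11 from 33863013 to 33873638, had 1.062, 0.6909, 1.733 and 3.268 FPKM in the same order. It was lowest in the E16.5 mutant and highest in the E18.5 mutant.

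The E16.5 difference of *Kcnmb1* was 1.54-fold lower in the mutant (log2 fold change -0.62, interval -0.92 to -0.33), from 153 against 270 reads. At E18.5 it was 1.89-fold higher (0.92, interval 0.69 to 1.15), and 3.08-fold higher than in E16.5 wild type. With library sums equalised the E18.5 log2 fold change was 0.49, under the 1.5-fold threshold, and with a pseudocount of 1 the E16.5 value was -0.29. Within a library the *Kcnmb1* level was 23.5%, 15.5%, 36.5% and 65.2% of the *Kcnma1* level, a ratio that a single factor per library does not change. The ratio was thus lowest in the E16.5 mutant and highest in the E18.5 mutant, with the pore near constant and the beta 1 subunit varying. A length and GC trend differs by gene and can change it. With that trend subtracted the E18.5 log2 fold changes were 0.81 for *Kcnmb1* and 0.29 for *Kcnma1*. *Kcnmb4*, another beta subunit gene, had 6.978, 7.738, 5.398 and 5.475 FPKM. That was 6.57, 11.2, 3.12 and 1.68 times the *Kcnmb1* level, so *Kcnmb1* was the lower of these beta subunit genes in every library.

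*Cacna1c* encodes the pore of the L-type calcium channel, the main route of calcium entry on depolarisation of smooth muscle. On chromosome 6 from 118542314 to 119146427, it had 4.087, 3.453, 2.587 and 4.277 FPKM, so the E18.5 wild type library was the low one and the other 3 were within 1.24-fold of each other. Mutant over wild type was 0.845-fold at E16.5 and 1.65-fold at E18.5 (log2 fold changes -0.24 and 0.73), but the E18.5 mutant was 1.05-fold the E16.5 wild type, and without the E18.5 wild type library the gene passed no threshold. The E18.5 value was also under 1.5-fold with median centring (0.44), equal sums (0.30), upper quartile scaling (0.42) and a pseudocount of 1 (0.56). With a length and GC trend subtracted it was 0.79, past 1.5-fold. The row overlaps that of *Dcp1b*, which had 2.46, 2.23, 3.56 and 2.32 FPKM, and reads of overlapping rows may be divided between them.

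Ryanodine and inositol trisphosphate receptors release calcium from the stores. *Ryr2*, a ryanodine receptor, on chromosome 13 from 11645370 to 12199212, had 1.762, 1.339, 1.292 and 1.591 FPKM. *Itpr1*, an inositol trisphosphate receptor, on chromosome 6 from 108163090 to 108501108, had 10.05, 11.12, 7.864 and 10.88 FPKM. Per length, *Itpr1* was 5.71, 8.3, 6.09 and 6.84 times the level of *Ryr2*, highest in the E16.5 mutant.

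Differences in the release channels were small. *Ryr2* was 1.32-fold lower in the mutant at E16.5 (log2 fold change -0.40) and 1.23-fold higher at E18.5 (0.30). The E18.5 value was -0.12 once library sums were equalised and 0.46 with a length and GC trend subtracted. For *Ryr2* the E18.5 mutant was 0.903-fold the E16.5 wild type. *Itpr1* was 1.11-fold higher at E16.5 and 1.38-fold higher at E18.5, and 1.08-fold higher in the E18.5 mutant than in E16.5 wild type. The E18.5 log2 fold change of *Itpr1*, 0.47, became 0.18 once the all-gene median was subtracted and 0.50 with the length and GC trend subtracted.

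Calcium returns to the stores through the pump SERCA. *Atp2a2*, which encodes its form in heart and smooth muscle and in most other cells, on chromosome 5 from 122903522 to 122952234, was the highest of the 10 genes in every library with 63.02, 55.28, 52.94 and 71.25 FPKM. Mutant over wild type was 0.877-fold at E16.5 and 1.35-fold at E18.5, the latter a log2 fold change of 0.43 that came to 0.00 with library sums made equal, and the E18.5 mutant was 1.13-fold the E16.5 wild type. *Pln*, which encodes phospholamban, an inhibitor of the pump, on chromosome 10 from 53057492 to 53065805, was the lowest of the 10 in every library. Among all genes above 0 FPKM of a library *Atp2a2* stood between the 94.3 and 95.7 percentile and *Pln* between 21.4 and 26.

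*Pln* had 0.3435, 0.3608, 0.5472 and 0.6331 FPKM, from 47, 43, 34 and 71 reads, and never reached 1 FPKM. Both E18.5 libraries were above both E16.5 libraries. The genotype differences lay within counting error, with log2 fold changes of 0.07 at E16.5 (interval -0.56 to 0.70) and 0.21 at E18.5 (interval -0.40 to 0.84), and no difference was detectable at this depth. The E18.5 mutant had 1.84 times the *Pln* level of E16.5 wild type (interval 1.26 to 2.72). From E16.5 to E18.5 the log2 fold change was 0.67 in wild type (interval -0.01 to 1.34) and 0.81 in the mutant (interval 0.24 to 1.39). The row lies within that of *Gm9766*, which had 4.18, 3.93, 4.79 and 3.79 FPKM.

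The muscarinic receptors differed from each other. *Chrm2*, the more abundant muscarinic receptor of bladder muscle, on chromosome 6 from 36473170 to 36474774, had 2.484, 2.671, 2.797 and 2.77 FPKM, measured on a row of only 1605 bases. Its log2 fold change was 0.10 at E16.5 (interval -0.18 to 0.38) and -0.01 at E18.5 (interval -0.35 to 0.33), and the E18.5 mutant was 1.12-fold the E16.5 wild type. *Chrm3*, the receptor through which acetylcholine mainly contracts the bladder, on chromosome 13 from 9875859 to 10360049, had 0.8202, 0.4435, 0.606 and 1.156 FPKM from 155, 73, 52 and 179 reads.

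*Chrm3* was lowest in the E16.5 mutant and highest in the E18.5 mutant, as *Kcnmb1* was. It was 1.85-fold lower in the mutant at E16.5 (log2 fold change -0.89, interval -1.31 to -0.48) and 1.91-fold higher at E18.5 (0.93, interval 0.48 to 1.41). The E18.5 mutant was 1.41-fold the E16.5 wild type (interval 1.13 to 1.76), which is under the 1.5-fold threshold. The E18.5 genotype value was under it as well with library sums equalised (0.51) and with a pseudocount of 1 (0.42). The *Chrm3* level was 33%, 16.6%, 21.7% and 41.7% of that of *Chrm2* in the same libraries.

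*P2rx1*, the ATP-gated cation channel through which ATP contracts bladder muscle, on chromosome 11 from 72812647 to 72828699, differed most. It had 3.664 FPKM in E16.5 wild type, 0.959 in E16.5 mutant, 3.324 in E18.5 wild type and 26.56 in E18.5 mutant, from 522, 119, 215 and 3101 reads. The wild type libraries were alike, and the mutant was below both at E16.5 and above both at E18.5. Mutant over wild type was 3.82-fold lower at E16.5 (log2 fold change -1.93, interval -2.23 to -1.64) and 7.99-fold higher at E18.5 (3.00, interval 2.80 to 3.20). The E18.5 value fell below that interval with median centring (2.71), equal sums (2.57), upper quartile scaling (2.70) and a length and GC trend subtracted (2.47).

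Without the E18.5 wild type library, the E18.5 mutant had 7.25 times the *P2rx1* level of E16.5 wild type (log2 fold change 2.86) and 27.7 times that of the E16.5 mutant. The percentile of the gene among all genes of its own library was 45.1, 29.5, 46.3 and 86.9. Among the 10 genes *P2rx1* ranked 5 and 7 in the E16.5 libraries, 4 in E18.5 wild type and 2, after *Atp2a2*, in E18.5 mutant UGS. *P2rx4*, another ATP-gated channel gene chosen for comparison after its values were seen, had 5.62, 5.55, 5.01 and 5.37 FPKM, so the *P2rx1* to *P2rx4* ratio went from 0.652, 0.173 and 0.664 to 4.95. *Camkk1*, the neighbouring gene on chromosome 11, had 4.29, 3.97, 1.5 and 6.27 FPKM.

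*P2rx1* is also known from platelets. Platelet markers, a list added after the values were seen, summed to 16.76, 18.1, 12.97 and 30.14 FPKM, and 6 of the 9 were under 1 FPKM in every library. *Itgb3* had 3.03, 1.65, 3.40 and 9.96 FPKM and *Pf4* 9.28, 11.5, 8.01 and 16.2 FPKM. *Gp1bb* had 1.955, 1.802, 0.8989 and 1.827 FPKM and *Itga2b* 0.8342, 0.9299, 0.267 and 0.6805 FPKM. The part of platelets in the *P2rx1* values was not tested.

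**Figure D2:**
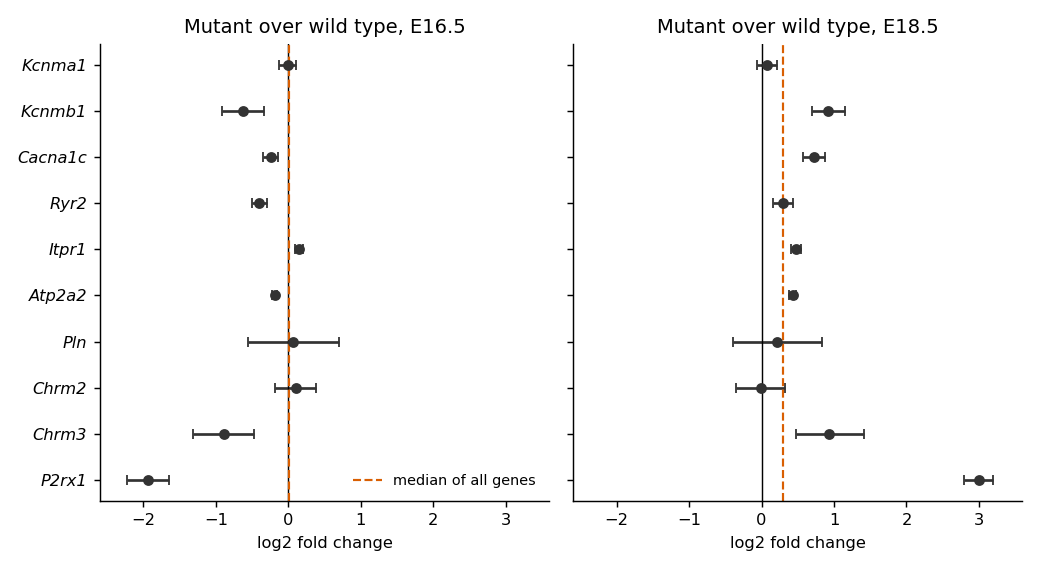
Log2 fold change of mutant over wild type (x axis) of each gene (y axis) at E16.5 (left) and E18.5 (right), with 95% counting intervals as bars and the median of all genes as a dashed line. *P2rx1*, *Chrm3*, *Kcnmb1*, *Cacna1c*, *Atp2a2* and *Ryr2* lie left of the line at E16.5 and right of it at E18.5, *Ryr2* at E18.5 by only 0.01. The intervals do not cover differences between embryos or preparations.

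Counts of the 10 genes were read against those of all genes, counting a gene where at least 1 of the libraries compared reached 1 FPKM. At E16.5, 8 of the 10 genes passed this minimum, and *Pln* and *Chrm3* did not. None was at least 1.5-fold or 2-fold higher in the mutant, against 1.44% and 0.481% of all 14761 genes. *Kcnmb1* and *P2rx1* were at least 1.5-fold lower, 2 of 8 against 2.72% of all genes, and *P2rx1* was at least 2-fold lower, against 1.17%. Of the E16.5 libraries, both genes reached 1 FPKM only in wild type, where they were high, so these counts too are descriptions.

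At E18.5, 9 genes passed the minimum, *Chrm3* only through the mutant library where it was high. *Kcnmb1*, *Cacna1c*, *Chrm3* and *P2rx1* were at least 1.5-fold higher, 4 of 9 against 33.2% of all 14733 genes, which is near the background. Only *P2rx1* was at least 2-fold higher, against 15.1%. None was 1.5-fold or 2-fold lower, against 7.6% and 2.89%.

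Between stages in wild type, *Kcnmb1* was at least 1.5-fold higher at E18.5 and *Cacna1c* at least 1.5-fold lower, 1 of 8 genes each, against 6.8% and 35.9% of all 14807 genes. None of the 10 was 2-fold higher or lower, against 2.7% and 16.8%. In the mutant, *Kcnmb1* (4.73-fold), *Chrm3* (2.61-fold) and *P2rx1* (27.7-fold) were at least 2-fold higher at E18.5 than at E16.5, 3 of 9 genes against 1.35%, and the same 3 passed 1.5-fold, against 3%. Of the mutant libraries, all 3 reached 1 FPKM only in that of E18.5, where they were high, so this count is a description and nothing is read from it. None was lower by 1.5-fold or 2-fold, against 1.68% and 0.571% of all 14713 genes. Neither of these mutant libraries is the E18.5 wild type library.

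For the E18.5 mutant over the E16.5 wild type, *Kcnmb1* and *P2rx1* were at least 2-fold higher, 2 of 9 against 1.23%, and these were also the genes past 1.5-fold, against 3.06%. None was 1.5-fold or 2-fold lower, against 3.41% and 1.28% of all 14766 genes. The median log2 fold change of the 10 genes was -0.20 between stages in wild type, 0.34 in the mutant and 0.17 for the E18.5 mutant over E16.5 wild type, where all genes had -0.33, -0.06 and -0.04.

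The genes whose profiles over the 4 libraries were most like those of *P2rx1* were *Actg2*, the smooth muscle gamma actin, *Popdc2* and *Synm*, an intermediate filament protein of muscle, at root mean square distances of 0.286, 0.392 and 0.415 on the log2(FPKM + 0.1) scale. All 10 smooth muscle markers were among its 100 nearest of 10880 genes with at least 5 FPKM in any library. *Actg2* had 199.6, 51.65, 237.3 and 1064 FPKM, and *P2rx1* was 1.84%, 1.86%, 1.4% and 2.5% of it. *Popdc2* had 6.84, 2.08, 6.43 and 27.6 FPKM.

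*Kcnmb1* was nearest to *Gpr133* (0.150), *Acta2*, the smooth muscle alpha actin (0.161), and *Lmod1*, a smooth muscle leiomodin (0.191), and 9 of the 10 markers were among its 100 nearest genes. Its level was 0.178%, 0.182%, 0.248% and 0.214% of that of *Acta2*, and 0.532%, 1.34%, 0.73% and 0.307% of that of *Actg2*. Genes near *Chrm3* in profile included *Bdh1* (0.098) and *Pgm5* (0.111), with 4 of the 10 markers among its 100 nearest. Its level was 0.411%, 0.859%, 0.255% and 0.109% of that of *Actg2*. For *Kcnma1*, *Cacna1c*, *Ryr2*, *Itpr1*, *Atp2a2*, *Pln* and *Chrm2*, 0 of the 10 markers were among the 100 nearest genes. In that order they had 1066, 227, 124, 1603, 234, 7 and 1204 genes within a distance of 0.1. *P2rx1*, *Kcnmb1* and *Chrm3* had 0, 0 and 1. Where many genes lie that close, markers further off cannot enter the 100 nearest, so the marker counts cannot be compared between these genes. These are descriptions over 4 libraries, and the marker counts and ratios were chosen after the values were seen.

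**Figure D3:**
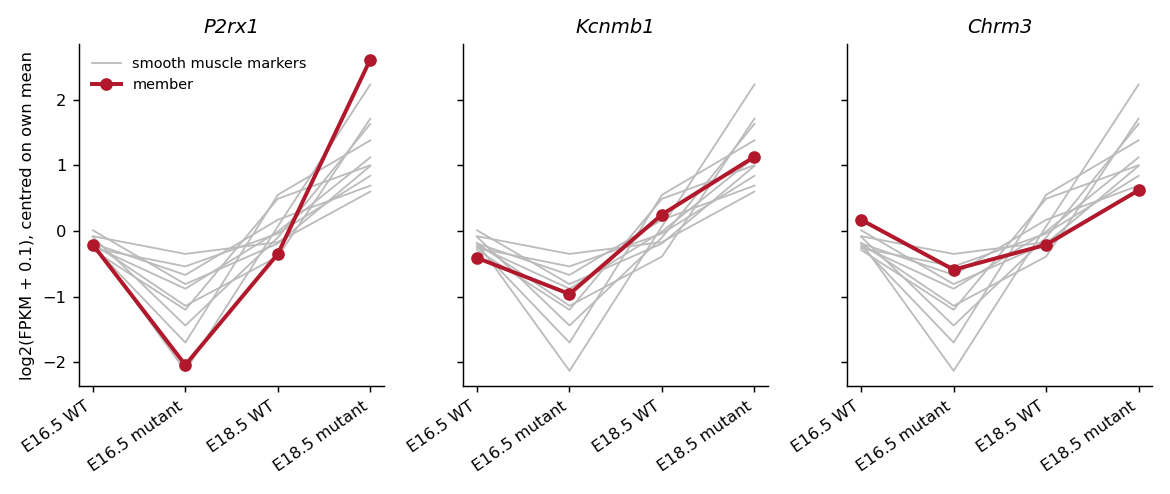
Log2(FPKM + 0.1) in the 4 libraries (x axis), centred on each gene's own mean, of *P2rx1*, *Kcnmb1* and *Chrm3* (red) and of the 10 smooth muscle markers (grey, 1 line per gene). The red and grey lines are lowest in the E16.5 mutant and highest in the E18.5 mutant.

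Windows of 300 bases around annotated starts were available from RefSeq (mouse GRCm38.p6) for 8 of the 10 genes, 10 windows in all, not for *Itpr1* and *Atp2a2*. They were searched on both strands for the CArG box, the serum response factor motif of muscle genes, and for AGGTGT, the core of T-box factor sites. The CArG box was in 0 of the 10 windows, against 1.63% of 32851 windows of all genes, and at 1 base off in 2 windows of *Cacna1c*, against 21.1%. The T-box core was in 1 window, of *Cacna1c*, against 13.7%. The stretches upstream of the annotated starts of *Kcnmb1* (chr11:33962763-33962954) and *P2rx1* (chr11:72998895-72999055, both on the plus strand of GRCm38.p6) are shown because their genes had the largest folds between the mutant libraries, and neither holds a match, so no base is in capitals.
Kcnmb1: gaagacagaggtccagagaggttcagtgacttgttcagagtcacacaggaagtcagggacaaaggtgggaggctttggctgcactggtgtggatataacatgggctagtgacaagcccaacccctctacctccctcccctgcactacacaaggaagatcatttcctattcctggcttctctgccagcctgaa
P2rx1: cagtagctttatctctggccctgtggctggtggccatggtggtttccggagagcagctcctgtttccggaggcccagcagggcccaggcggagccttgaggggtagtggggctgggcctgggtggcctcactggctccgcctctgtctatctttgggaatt

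Other genes of the same pathways were counted from 8 lists of 120 genes, of which 119 were in the table. At E16.5, 98 passed the 1 FPKM minimum, of which 1 was at least 1.5-fold higher and 12 were lower, against 1.44% and 2.72% of all genes, with a median log2 fold change of -0.08. At E18.5, 25 of 97 were higher and 3 lower, against 33.2% and 7.6% of all genes, with a median of 0.10 where all genes had 0.29. For the E18.5 mutant over the E16.5 wild type, 5 of 97 were higher and 10 lower, against 3.06% and 3.41%.

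Calcium release and store proteins held most of the genes that were at least 1.5-fold lower at E16.5, 7 of 13 against 2.72% of all genes. *Jph2*, a junctophilin that ties stores to the membrane, had 8.35, 3.54, 2.39 and 14.3 FPKM, 1.24 lower on the log2 scale in the mutant at E16.5 (log2 fold change -1.24) and higher at E18.5 (2.59), and 0.78 over E16.5 wild type. *Casq2*, a calcium store protein of heart and slow skeletal muscle, had 18.4, 8.09, 11.4 and 13.7 FPKM. Among pumps and their regulators 3 of 9 were at least 1.5-fold lower at E16.5, against 2.72% of all genes. *Atp2a1*, the pump of fast skeletal muscle, had 16.1, 6.37, 7.74 and 5.61 FPKM and *Sln*, its inhibitor sarcolipin, 15.8, 7.51, 5.40 and 8.23 FPKM. Skeletal muscle markers were 10 of 10 at least 1.5-fold lower at E16.5, and the part they play in these values was not tested.

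Of 14 potassium channel genes with at least 1 FPKM, 4 were at least 1.5-fold higher in the mutant at E18.5, against 33.2% of all genes. At E16.5 it was 0 of 14, against 1.44%, and for the E18.5 mutant over the E16.5 wild type 1 of 14, against 3.06%. *Kcnk3*, a background potassium channel, had 5.46, 4.23, 2.60 and 6.05 FPKM and *Kcnj8*, a pore subunit of ATP-sensitive channels, 12.4, 13.8, 6.35 and 13.1 FPKM. In both the E18.5 wild type library was the low one, and the E18.5 mutant over E16.5 wild type had log2 fold changes of 0.15 and 0.08. *Trpm4*, a calcium-activated cation channel, had 7.19, 7.25, 2.85 and 6.72 FPKM, with the same low library. Of 12 store-operated and TRP channel genes 5 were higher at E18.5 and 0 lower, and of 13 voltage-gated calcium channel subunits 3 were higher and 1 lower, against 33.2% and 7.6% of all genes. For the E18.5 mutant over the E16.5 wild type 0 genes of either list were higher and 1 of each was lower, against 3.06% and 3.41%.

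Of the other purinergic receptors 4 of 9 were at least 1.5-fold higher at E18.5 and 0 lower, against 33.2% and 7.6% of all genes. For the E18.5 mutant over E16.5 wild type 0 of 9 were higher and 1 lower, against 3.06% and 3.41%. None of the 6 other transmitter receptors with at least 1 FPKM was 1.5-fold higher or lower at E18.5, against 33.2% and 7.6%. For the E18.5 mutant over the E16.5 wild type 0 of 7 were higher and 1 lower, against 3.06% and 3.41%. In the relay of G proteins and kinases, 5 of 20 were higher at E18.5, against 33.2% of all genes. For the E18.5 mutant over the E16.5 wild type it was 3 of 20, against 3.06%. *Ppp1r14a*, an inhibitor of myosin phosphatase, had 32.9, 23.3, 17.6 and 60.8 FPKM and was 0.88 higher on the log2 scale than in E16.5 wild type. *Mylk*, myosin light chain kinase, had 61.2, 46.2, 127.6 and 139.6 FPKM, higher at E18.5 in both genotypes.

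**Figure D4:**
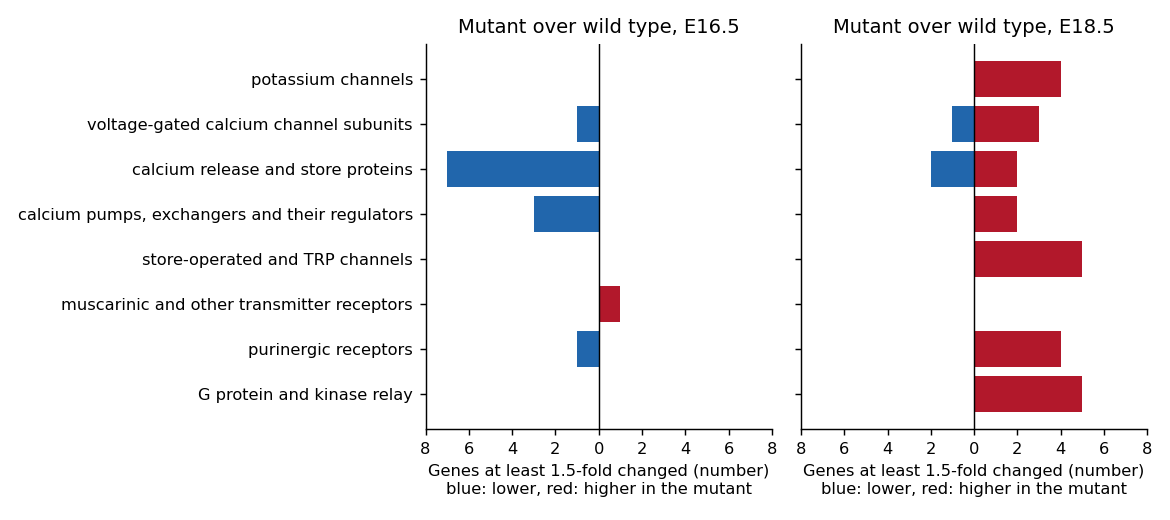
Number of genes (x axis) of each of the 8 pathway lists (y axis) at least 1.5-fold lower (blue, to the left) or higher (red, to the right) in the mutant at E16.5 (left panel) and E18.5 (right panel), among genes that reached 1 FPKM in at least 1 of the libraries compared. Lower genes at E16.5 come mostly from calcium release and store proteins, 7 of the 12.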

How the data were processed

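RNA-Seq libraries of RNA pooled from 3 male embryos were analysed, 1 per genotype and stage. The authors aligned single-end reads of a stranded kit with TopHat2 2.1.0 at default options, after Trimmomatic 0.30 per the labels, and deposited FPKM from Cufflinks 2.2.1. The genome build is not given in the sources used here. The deposited table was used as it stands, with positions counted from 1, and positions of other builds were not mixed with it. TopHat's default library type ignores strand, so reads of overlapping genes cannot be told apart.

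The members and gene lists were chosen with earlier results of these data known. The platelet list, the ratios, the marker counts among nearest genes, the CArG search with 1 base off, the printed promoters and the neighbouring rows were chosen after the values were seen. Fold changes are ratios of FPKM with no pseudocount, counted at 1.5-fold and 2-fold where at least 1 of the libraries compared reached 1 FPKM. Medians over the members take all 10, a departure from the planned minimum. Named genes are the 10 members, *Tbx18*, the 3 genes nearest to a member in profile and, per pathway list, up to 3 genes changed at least 2-fold with at least 5 FPKM in the higher library. *P2rx4*, *Kcnmb4* and the marker genes named fall outside that rule. Not all genes that the rule names are reported here.

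Depth came from 17 to 28 single-exon olfactory receptor rows per library. For 7 members a transcript length, searched from the FPKM itself, gave reads within 0.02 of a whole number in all 4 libraries. This search and its tolerance were set after trying it on these members. For *Cacna1c*, *Itpr1* and *Atp2a2* read numbers are low estimates. Exact (Clopper-Pearson) intervals of 95% cover counting error only. Without replicates no test was applied. The alternatives were 4 scalings or corrections (median centring, equal sums, upper quartile, a lowess trend of span 0.3 on GENCODE M21 length and GC content), 2 pseudocounts, 2 filters and repeated symbols left out. The steps were tested on simulated data. The tools were statsmodels 0.14.6, matplotlib 3.10.9, scipy 1.17.1, pandas 2.3.3 and numpy 2.4.6 in Python 3.11.15.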

Additional observations from a re-analysis of the deposited data

Results flagged for a closer look

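For 8 of the 10 genes mutant over wild type had opposite directions at E16.5 and E18.5, as 43.9% of 14455 genes did that reached 1 FPKM in a library of each comparison and were above 0 in all 4 libraries. With 1 library per group the difference between stages was not tested. The log2 fold changes at E16.5 and E18.5 were -1.93 and 3.00 for *P2rx1*, -0.89 and 0.93 for *Chrm3*, -0.62 and 0.92 for *Kcnmb1*, and -0.24 and 0.73 for *Cacna1c*. These 4 genes had opposite directions under each of the 4 scalings or corrections as well. *Ryr2* had -0.40 and 0.30, *Atp2a2* -0.19 and 0.43, *Kcnma1* -0.01 and 0.08, and *Chrm2* 0.10 and -0.01, and for these 4 genes the direction at one stage or the other changed, or the value came to 0.00, with the scaling. With library sums made equal 4 genes were opposite, with upper quartile scaling 7, with the length and GC trend subtracted 6, and with median centring 8, *Pln* in place of *Kcnma1*.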

How the results depend on the processing

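The 17 single gene values of at least 1.5-fold kept their direction in all 68 recomputations that rescale or correct the libraries. Median centring, equal sums and upper quartile scaling shift all genes of a comparison alike, by at most 0.424 on the log2 scale. That is less than 1.5-fold, so these settings could not reverse the 17 values, and only the trend correction could. In the other 85 (pseudocounts, filters, repeated symbols) the direction of a single gene is fixed by construction. In all, of 450 single gene values recomputed 361 stayed inside the main counting interval and 89 did not. Smaller values changed direction in places, as given above for the genotype comparisons.

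The median of the 10 genes at E16.5 was -0.32 with equal sums. At E18.5 it was 0.16 with median centring, 0.02 with equal sums, 0.15 with upper quartile scaling and 0.48 with the trend subtracted. Between stages in wild type it was 0.14, 0.10, 0.15 and 0.02 with median centring, equal sums, upper quartile scaling and the trend subtracted, and in the mutant 0.42 with the trend subtracted and 0.25 with a pseudocount of 1. At E16.5 only *Itpr1* (0.15) and *Atp2a2* (-0.19) reached 5 FPKM in a compared library, and the midpoint of their opposite values was -0.02.

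Genes at least 1.5-fold lower at E16.5 numbered 1 with a pseudocount of 0.1 or 1 and 0 at 5 FPKM, and those 2-fold lower 0 at 5 FPKM. Genes 1.5-fold higher at E18.5 numbered 1 with equal sums, 2 with a pseudocount of 1 and 1 at 5 FPKM. Between stages in wild type, genes 1.5-fold lower numbered 0 under each of the 4 scalings, a pseudocount of 1 or 5 FPKM. Genes 1.5-fold higher numbered 0 with a pseudocount of 1 or 5 FPKM and 2 without a filter, and 1 gene was 2-fold higher with median centring or upper quartile scaling. At 5 FPKM, 1 gene was 1.5-fold and 2-fold higher between stages in the mutant and for the E18.5 mutant over E16.5 wild type. Fewer genes pass at 5 FPKM by construction, and pseudocounts shrink low values. For the other settings the cause was not tested.

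The planned rank of each gene within its own library is given as a percentile for *P2rx1*, *Atp2a2* and *Pln*. Leaving out repeated symbols touched no member. No paired analysis was possible because each group holds 1 library. Pooling hides the spread between embryos, and the depth of the E18.5 wild type library limits *Pln* and *Chrm3* most.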
